A study of Mus musculus with 4 samples.

Results

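Transcripts of 10 mouse genes that mark the trophoblast were followed in pluripotent cells and in aggregates cultured with or without 2 inhibitors of chromatin regulators. The genes were the transcription factors Cdx2, Gata2, Gata3, Elf5, Tfap2a, Tfap2c and Hand1, the keratins Krt8 and Krt18, and Plac8. They were chosen by name, as every probe carrying 1 of these symbols on the array, which gave 10 of the 36039 genes measured. The array lists 8 of them under the current symbol, while Tfap2a and Tfap2c appear under their old names Tcfap2a and Tcfap2c and were recovered through the RefSeq accessions of their probes. In all, 13 probes represented the 10 genes, with 1 probe for 7 genes and 2 probes for Tfap2a, Krt8 and Plac8.

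RNA came from E14Tg2A, an established mouse embryonic stem (ES) cell line of strain 129/Ola and was read on 4 single-colour arrays. ES cells at day 0 were kept in serum with the cytokine LIF, and epiblast-like aggregates (ELA) were the same cells after 2 days floating in serum-free minimal medium. A further ELA culture received 50 nM 5-azacytidine (AZA), which inhibits DNA methyltransferases, and another received 100 µM 5-carboxy-8-hydroxyquinoline (CHQ), which inhibits histone lysine demethylases. Each array held RNA pooled from 3 experiments and stands alone in its group, so the spread between cultures was not measured and no p-value is given. All cultures derive from the same line, and none of them is a trophoblast stem cell culture.

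The trophoblast is the first lineage set aside in the mouse embryo, and its descendants form the placenta. Cdx2, Tfap2c, Gata3 and Elf5 are factors of the trophectoderm and of trophoblast stem cells, Hand1 acts in trophoblast giant cells, and Krt8 and Krt18 pair into the filaments of simple epithelia, of which the trophectoderm is the earliest. ES cells seldom form trophoblast, and DNA methylation is known to contribute to this barrier, with the Elf5 promoter methylated in ES cells and unmethylated in trophoblast stem cells. The arrays therefore bear on whether aggregates cultured without full DNA methyltransferase or demethylase activity contain more of these transcripts.

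Levels are normalized intensities on the log2 scale, so that a difference of 1 is a change of 2-fold. A gene could be called in a comparison when its level averaged 7.5 or more over the pair of arrays and the scanner software marked its probe as well above background on either of them. It was called higher or lower when, in addition, the levels differed by 1 or more. Repeated spots of a probe within an array had a pooled SD of 0.15, which covers spotting and reading and no variation between cultures. The ES and ELA arrays shared a slide, and the AZA and CHQ arrays shared another. For a treated against an untreated array, slide and treatment cannot be told apart. Spots well above background made up 60.6% (ES) and 55.1% (ELA) of gene spots on the first slide and 69.1% (AZA) and 69.2% (CHQ) on the second, and the median local background was 59 and 77 against 14 and 13 intensity units. The ES cell markers fixed for checking the labels were well above background on every array (6 of 6), and so were the ELA markers (5 of 5). That mark alone does not tell ES from ELA. From ES to ELA, 4 ES cell markers were lower and 2 ELA markers were higher, while 4.46% of all genes tested were higher and 5.6% lower.

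The RefSeq promoter table (build GRCm38.p6) held 8 of the 10 genes, at 12 start sites, and Tfap2c and Hand1 had no entry. Because AZA acts on the methylation of cytosines followed by guanine, the 250 bases before the start site are shown for the genes whose transcripts differed most between the treated and the untreated ELA arrays and for Elf5, read 5′ to 3′ along the gene, with each CpG in capitals.
Elf5, upstream start, GRCm38.p6, chr2:103411848-103412097, plus strand: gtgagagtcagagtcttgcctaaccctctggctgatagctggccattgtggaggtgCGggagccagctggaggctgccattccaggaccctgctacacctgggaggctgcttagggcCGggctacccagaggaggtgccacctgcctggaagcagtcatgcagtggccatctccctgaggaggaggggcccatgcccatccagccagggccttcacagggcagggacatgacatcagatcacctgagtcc
Elf5, downstream start, GRCm38.p6, chr2:103423818-103424067, plus strand: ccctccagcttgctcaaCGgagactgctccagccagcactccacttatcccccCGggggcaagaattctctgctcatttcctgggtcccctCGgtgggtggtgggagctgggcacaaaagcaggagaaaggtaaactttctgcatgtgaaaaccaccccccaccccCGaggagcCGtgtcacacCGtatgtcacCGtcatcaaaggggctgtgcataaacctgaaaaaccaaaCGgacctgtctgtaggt
Tfap2a, upstream start, GRCm38.p6, chr13:40734921-40735170, minus strand: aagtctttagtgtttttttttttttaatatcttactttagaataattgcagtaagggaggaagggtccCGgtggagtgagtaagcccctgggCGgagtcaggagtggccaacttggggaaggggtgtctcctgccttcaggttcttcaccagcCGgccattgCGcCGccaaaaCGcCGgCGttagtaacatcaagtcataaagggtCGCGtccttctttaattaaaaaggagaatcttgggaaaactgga
Tfap2a, downstream start, GRCm38.p6, chr13:40733796-40734045, minus strand: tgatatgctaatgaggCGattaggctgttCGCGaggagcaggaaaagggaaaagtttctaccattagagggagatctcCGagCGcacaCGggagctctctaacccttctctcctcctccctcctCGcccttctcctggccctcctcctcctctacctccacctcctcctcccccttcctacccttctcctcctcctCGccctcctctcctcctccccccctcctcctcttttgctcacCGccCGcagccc
Krt8, GRCm38.p6, chr15:102004343-102004592, minus strand: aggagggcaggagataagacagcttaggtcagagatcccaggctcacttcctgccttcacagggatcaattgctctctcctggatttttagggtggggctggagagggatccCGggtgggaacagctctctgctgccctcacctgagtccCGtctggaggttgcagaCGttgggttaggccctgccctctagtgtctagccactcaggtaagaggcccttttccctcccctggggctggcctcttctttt
Krt18, GRCm38.p6, chr15:102027966-102028215, plus strand: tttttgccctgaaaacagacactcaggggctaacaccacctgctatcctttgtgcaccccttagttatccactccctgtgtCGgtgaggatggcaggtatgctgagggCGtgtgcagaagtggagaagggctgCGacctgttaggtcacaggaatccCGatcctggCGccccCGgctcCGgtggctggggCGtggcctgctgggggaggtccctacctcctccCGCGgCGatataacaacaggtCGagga
Plac8, upstream start, GRCm38.p6, chr5:100572206-100572455, minus strand: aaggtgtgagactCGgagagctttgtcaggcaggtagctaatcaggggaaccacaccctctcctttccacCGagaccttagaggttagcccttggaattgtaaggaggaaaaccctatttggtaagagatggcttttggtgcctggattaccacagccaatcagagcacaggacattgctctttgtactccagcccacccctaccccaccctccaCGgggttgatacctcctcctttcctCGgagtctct

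Across all 32851 promoters of the table the median was 6 CpG, with quartiles at 2 and 16. The genes shown lay mostly around the middle of this range. The upstream start of Elf5 held 2 CpG and its downstream start 8. Krt8 held 3, the upstream start of Plac8 4 and its downstream start 9. Each start of Tfap2a held 10 and Krt18 held 12. Cdx2 had 13, Gata3 19 and the 2 starts of Gata2 22 and 24. Methylation itself was not measured on these arrays.

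Short motifs were counted on both strands of the same windows. The letters GCCNNNGGC, which TFAP2 proteins bind and which read the same on both strands, occurred once upstream of Cdx2, Krt18 and the downstream start of Gata2, and 3 times upstream of Gata3, and 13.7% of all promoters held them. The GATA motif AGATAA occurred once, upstream of Krt8, against 9.99% of all promoters. The TEAD motif GGAATG occurred once at the downstream start of Gata2 and once at the upstream start of Elf5, against 12.6% of all promoters. TATAAA, held by 12.4% of all promoters, was in none of the 12 windows. None of these motifs holds another, and a match describes letters and not a bound site.

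The 10 genes divided by level. Krt8, Krt18, Plac8 and Tfap2c were bright on the ES and ELA arrays, Gata2 and Tfap2a were dim but well above background on all 4 arrays, and Cdx2, Gata3, Elf5 and Hand1 fell short of that mark on 1 array or more. The plot of levels shows this division and the untreated and treated arrays side by side.

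**Figure D1:**
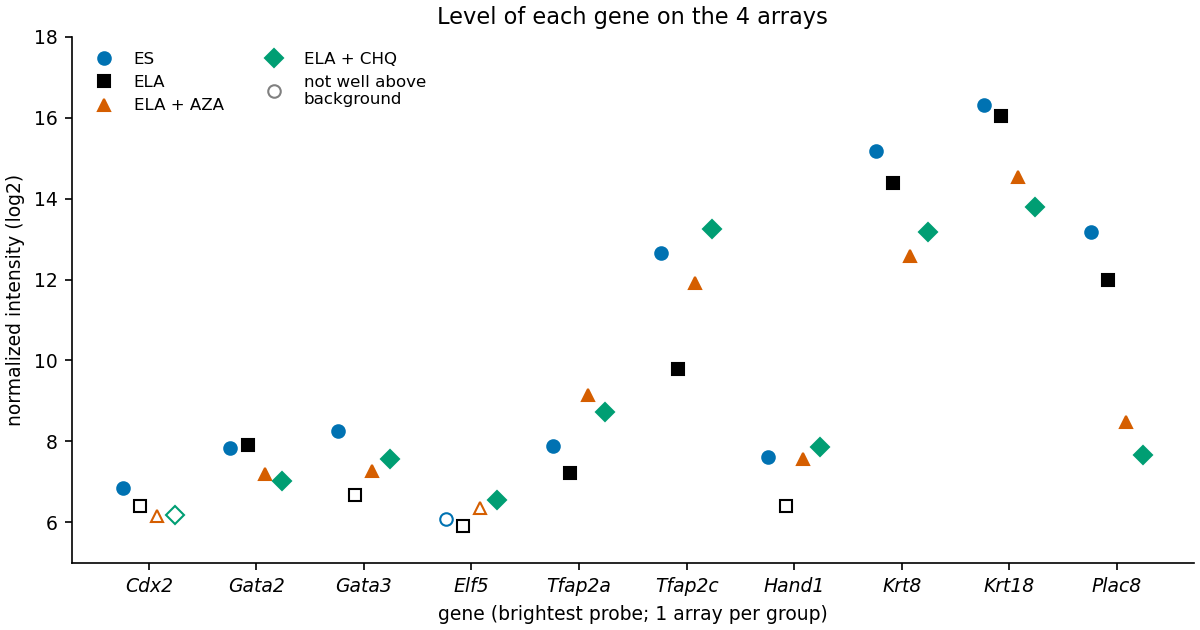
Normalized intensity (log2, vertical axis) of the brightest probe of each of the 10 genes (horizontal axis) on the ES, ELA, ELA + AZA and ELA + CHQ arrays, 1 array per group, so without error bars. Open symbols mark arrays on which the probe was not well above background. Tfap2c was lowest on the ELA array (9.79), and Krt8, Krt18 and Plac8 were lower on both treated arrays than on both untreated ones.

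Tfap2c, which encodes the AP-2 gamma factor of the trophectoderm and also of germ cell precursors, had a level of 12.65 in ES cells, 9.79 in ELA, 11.91 with AZA and 13.24 with CHQ (probe at mm9 chromosome 2, 172383860 to 172383919). The ELA array was the low one, and the CHQ array was the highest. Compared with ES, the level in ELA was lower by a difference of -2.86, a 7.25-fold gap that 0.401% of the genes tested equalled or exceeded in that direction. Against the ELA control, the level was higher by 2.11 with AZA (4.32-fold) and by 3.45 with CHQ (10.9-fold). Both comparisons use the same ELA array, whose low value enters each of them. On the slide that AZA and CHQ shared, CHQ exceeded AZA by 1.34, or 2.52-fold. Against ES, the difference was -0.75 for AZA and 0.59 for CHQ, neither past the size of 1. When the arrays were scaled on the spike-in probes these became -1.49, called lower, and -0.39.

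Tfap2a encodes AP-2 alpha, a factor of the trophoblast, the surface ectoderm and the neural crest. Its brighter probe (mm9 chromosome 13, 40811044 to 40811103) read 7.90 on ES, 7.22 on ELA, 9.14 on AZA and 8.73 on CHQ. Both treated arrays were above both untreated ones at this probe. The difference from ELA was 1.92 with AZA (3.79-fold) and 1.51 with CHQ (2.85-fold), and the AZA array was also above ES, by 1.25, a call lost with spike-in scaling (0.62) and with the mean over probes (0.78). The dimmer probe (40829040 to 40829099 on the same chromosome) read 6.23, 6.11, 6.53 and 6.32 in the same order and was well above background on the AZA array only, so that it gave no second measure of the change. Averaging both probes took the difference to 1.17 with AZA and 0.86 with CHQ, and Tfap2a was then called in neither comparison. The call was also missed in the deposited value table for both inhibitors (differences of 2.46 and 2.00) and with scaling on the 75th percentile for CHQ (1.97), where the difference was larger but the mean level was under the minimum.

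Hand1, a basic helix-loop-helix factor needed for giant cells, read 7.63 on ES, 6.41 on ELA, 7.56 on AZA and 7.87 on CHQ (mm9 chromosome 11, 57642342 to 57642401). It was well above background on every array but ELA. The ELA array therefore gives a bound, and ES was at least 1.84-fold, AZA at least 1.75-fold and CHQ at least 2.17-fold above it. Such a bound sets the brighter array against the weakest signal still well above background on the dimmer one, or against the dim reading itself if that was higher. That weakest signal is not a strict detection limit. Another gene, Wnt6, read 6.88 on ELA without being well above background, while the weakest signal used for ELA was 6.75. With spike-in scaling the differences from ELA were 0.62 with AZA and 0.87 with CHQ. These lie under the log2 forms of the bounds, 0.81 and 1.12, so the AZA and CHQ bounds rest on the scaling used. Around the spot the local background was 78 units on ELA and 65 on ES but 15 on AZA and 13 on CHQ, and its part in this pattern was not tested. AZA and CHQ lay at -0.07 and 0.24 from ES, so neither treated array was past the size of 1 from ES.

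Gata3, a zinc finger factor of the trophectoderm, read 8.26 on ES, 6.67 on ELA, 7.26 on AZA and 7.57 on CHQ (mm9 chromosome 2, 9779551 to 9779610). The ES array was the highest, and ELA was again the array on which the gene was not well above background. ES was at least 2.85-fold above ELA, AZA at least 1.43-fold and CHQ at least 1.77-fold. With spike-in scaling the differences from ELA were 0.09 with AZA and 0.32 with CHQ. These lie under the log2 forms of the bounds, 0.51 and 0.82, so the AZA and CHQ bounds rest on the scaling used. The uncorrected intensity was higher on ELA (117.5 over a local background of 80) than on AZA (105.9 over 14), whereas the normalized level was higher on AZA by 0.60, and by 0.64 when no background was corrected. From ES to AZA the difference was just under the size of 1 in magnitude, and Gata3 was called lower there under 4 of the 10 alternative settings.

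Gata2, the related factor that acts in giant cells, read 7.84 on ES, 7.90 on ELA, 7.19 on AZA and 7.03 on CHQ (mm9 chromosome 6, 88156362 to 88156421). It was well above background on all 4 arrays and, unlike Gata3, stood no lower on ELA than on ES. Its differences from ELA were -0.71 with AZA and -0.87 with CHQ, both short of the size of 1. They reached that size with scaling on the 75th percentile (-1.22 and -1.56), on the spike-in probes (-1.02 and -1.31) and in the deposited value table (-1.004 and -1.25). Without the normexp offset they were -0.98 and -1.22. Gata2 was called in none of these, its mean level over each pair lying under the minimum.

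Cdx2, the homeobox factor that specifies the trophectoderm, read 6.86 on ES, 6.39 on ELA, 6.15 on AZA and 6.18 on CHQ (mm9 chromosome 5, 148112547 to 148112606). It was well above background on the ES array alone. By the rule given for Hand1, ES was at least 1.08-fold above ELA, at least 1.35-fold above AZA and at least 1.33-fold above CHQ. The figure for ELA is not a firm minimum. Wnt6 read 6.88 there without being well above background, which is above the Cdx2 reading on ES. A Cdx2 transcript above background was thus not detected in ELA with or without an inhibitor, which at this signal does not show absence.

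Elf5, an ETS factor that sustains trophoblast stem cells, read 6.07 on ES, 5.91 on ELA, 6.35 on AZA and 6.54 on CHQ (mm9 chromosome 2, 103290958 to 103291017). Only the CHQ array was well above background. There the spot read 48.44 intensity units over a local background of 14. By the rule given for Hand1, CHQ was at least 1.09-fold above AZA and at least 1.01-fold above ES. No fold could be set against ELA, whose weakest signal well above background exceeded the CHQ value. The figure for ES is not a firm minimum, because Pcdh12 read 6.80 on ES without being well above background. The bounds also rest on the scaling used. With spike-in scaling CHQ minus AZA was 0.09, under the 0.12 of its log2 bound, and CHQ minus ES turned to -0.51. With AZA, the inhibitor of the DNA methyltransferases, the probe was not well above background. The sign of the AZA minus ELA difference (0.44) was not stable, running from -0.48 with scaling on the 75th percentile to 1.64 without the normexp offset.

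The keratins and Plac8 ran the other way from Tfap2a and Tfap2c. Krt18, the acidic partner of the pair, read 16.31 on ES, 16.03 on ELA, 14.54 on AZA and 13.78 on CHQ (mm9 chromosome 15, 101862341 to 101862400). Both treated arrays were below both untreated arrays. The difference from ELA was -1.50 with AZA (2.82-fold lower) and -2.25 with CHQ (4.75-fold lower), and that between ELA and ES was -0.28.

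Krt8, the basic partner, whose probes lie on the same chromosome, read 15.19 on ES, 14.38 on ELA, 12.58 on AZA and 13.18 on CHQ at its brighter probe (101827138 to 101827197). Its second probe (101828827 to 101828886) read 13.91, 13.04, 10.03 and 10.62 in the same order. Both probes put the treated arrays below the untreated ones, and all 8 readings were well above background. The difference from ELA was -1.81 with AZA and -1.21 with CHQ at the brighter probe and -3.01 and -2.42 at the dimmer one. AZA lay lowest for Krt8 and CHQ lowest for Krt18, and within their slide CHQ minus AZA was 0.60 for Krt8 and -0.75 for Krt18, both short of the size of 1. Over the 4 centred values the keratins lay 1.03 log2 units apart, and Krt18 ranked 283 among the 13046 genes compared in nearness to Krt8.

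Plac8, named for its abundance in placenta and found in several other tissues, had the widest range of the 10 genes. Its brighter probe (mm9 chromosome 5, 100982797 to 100982856) read 13.18 on ES, 11.98 on ELA, 8.48 on AZA and 7.66 on CHQ. Its second probe (101001165 to 101001224) read 9.93, 8.74, 7.02 and 6.65 in the same order, and the 4 arrays had the same order at both. From ES to ELA the level was lower by a difference of -1.20, or 2.29-fold. The difference from ELA was -3.50 with AZA (11.3-fold lower) and -4.33 with CHQ (20.1-fold lower), and the second probe gave -1.72 and -2.09. With CHQ, 0.0573% of the genes tested were at least as far below ELA as Plac8. CHQ minus AZA was -0.82, which passed the size of 1 with scaling on the 75th percentile, without the normexp offset and in the deposited value table, and Plac8 was called in the first 2 of these.

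**Figure D2:**
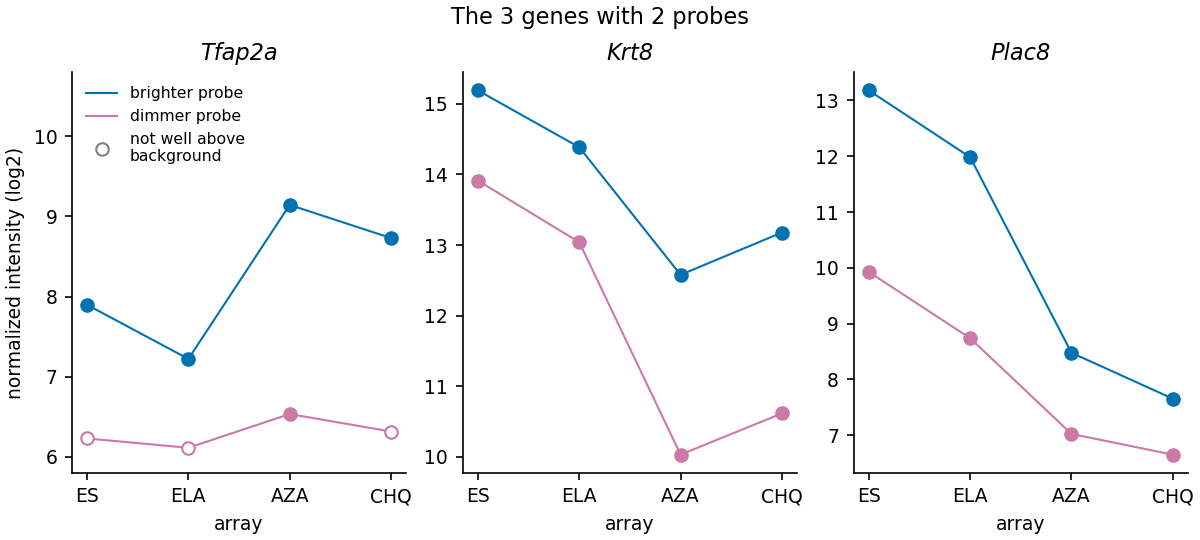
Normalized intensity (log2, vertical axes) of the brighter and the dimmer probe of Tfap2a, Krt8 and Plac8 on the 4 arrays (horizontal axes), with open symbols where a probe was not well above background. Lines join the readings of a probe and do not stand for a time course. Both probes of Krt8 and of Plac8 were lower on AZA and CHQ than on ES and ELA, whereas the dimmer Tfap2a probe stayed between 6.11 and 6.53.

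Between ES and ELA, 6 of the 10 genes could be called, 0 were higher and 2 were lower, Tfap2c and Plac8. Of all 18968 genes that could be called in this comparison, 4.46% were higher and 5.6% lower. The number of lower genes among the 10 became 6 with spike-in scaling, where 317 of all 20568 genes tested were higher and 3897 lower. It became 4 without the filter on dim probes, where 1207 of all 36039 genes were higher and 1331 lower. The median difference of the 10 genes was -0.74, against -0.02 over all genes tested. The reading was higher on ES than on ELA for 9 of the 10, Gata2 being the exception at 0.06, although Cdx2, Gata3, Elf5 and Hand1 were not well above background on ELA and Elf5 on neither array. The sign turned for Gata2 with spike-in scaling (-0.38) and for Elf5 with the 75th percentile (0.67).

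With AZA, 6 of the 10 genes could be called against the ELA control, of which 2 were higher (Tfap2a and Tfap2c) and 3 lower (Krt8, Krt18 and Plac8), while 14.3% of the genes tested were higher and 11.4% lower. The fold of the lower calls ran from 2.82 to 11.3. With CHQ, 5 could be called and the same 5 genes were called in the same directions, against a background of 14.8% higher and 11.9% lower. These counts are of few genes, and both comparisons share the ELA array. The median difference of all 10 genes was 0.10 with AZA and 0.21 with CHQ, against -0.07 and -0.09 over all genes tested. Over only the members that could be called it was -1.10 and -1.21. The median of all 10 passed below 0 with either of the other scalings, to -0.85 and -0.43 with the 75th percentile and to -0.49 and -0.51 with the spike-in probes, scalings that took the median of all genes to -0.20 and -0.26 and to -0.26 and -0.39. The 5 calls under each inhibitor kept their sign under every setting tried.

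**Figure D3:**
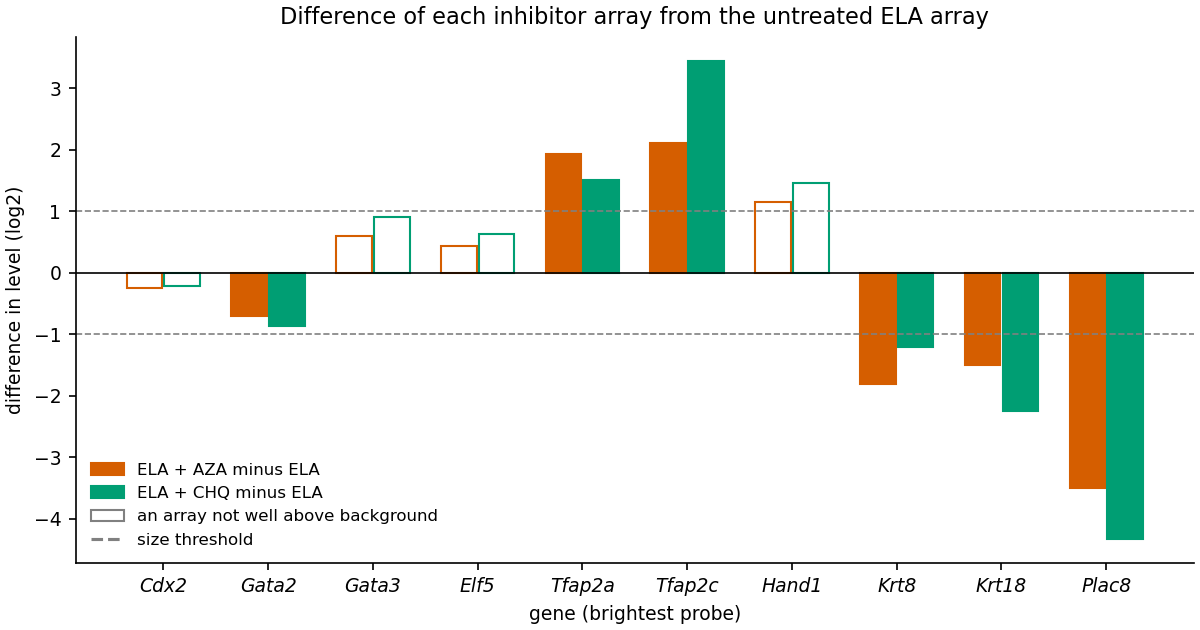
Difference in level (log2, vertical axis) of the ELA + AZA and the ELA + CHQ array from the same untreated ELA array for each of the 10 genes (horizontal axis), with the size threshold dashed. White bars mark differences in which either array was not well above background. Tfap2a and Tfap2c stood above the threshold and Krt8, Krt18 and Plac8 below it for both inhibitors, while Hand1 was past it only against an ELA reading not well above background.

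Within the slide of the treated arrays, Tfap2c was the only 1 of 6 genes called between the inhibitors, higher with CHQ than with AZA. Over all genes tested, 5.56% were higher and 4.83% lower with CHQ. Against ES rather than ELA, 8 genes could be called with AZA, of which 1 was higher (Tfap2a, 1.25) and 3 lower (Krt8, -2.61; Krt18, -1.78; Plac8, -4.70), against 11.3% higher and 8.29% lower over all genes tested. The split of 1 higher and 3 lower became 0 and 6 with spike-in scaling, where 912 of all 19750 genes tested were higher and 8157 lower. It became 0 and 3 with the mean over probes, where 1811 of 17899 were higher and 1421 lower. With CHQ, 7 could be called, 0 were higher and the same 3 genes were lower (Krt8, -2.01; Krt18, -2.53; Plac8, -5.52), against 12.7% higher and 10.3% lower. Tfap2a was called higher there with the 75th percentile (1.10) and in the deposited value table. Spike-in scaling gave 0 higher and 4 lower, while 955 of all 19557 genes tested were higher and 9749 lower. Krt8, Krt18 and Plac8 were thus below ES as well as below untreated ELA. A lower level in a pooled culture does not tell fewer expressing cells from less RNA per cell.

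By Euclidean distance of the 4 centred log2 levels, the genes nearest to the 2 members of widest range were sought among 13046 genes well above background on all arrays. Nearest to Plac8 were Acta2 (0.60 log2 units away), Tagln (0.81) and Rnu3b1 (1.79). Acta2, the smooth muscle actin, read 12.38 in ES cells, 10.83 in ELA, 6.97 with AZA and 6.89 with CHQ, and Tagln, the actin-binding transgelin, read 15.48, 13.70, 11.12 and 10.41. Like Plac8, both were lowest on the treated arrays. Nearest to Tfap2c were Ahnak (0.45), Perp (0.57) and Epha2 (0.60). Perp, a desmosomal membrane protein of epithelia, read 14.02, 11.81, 13.81 and 15.34, which is the order of arrays seen for Tfap2c. The likeness rests on 4 arrays, and many genes fit a pattern of so few values.

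Related genes were counted in the same way, to be read against the 14.3% higher and 11.4% lower of all genes tested with AZA and the 14.8% and 11.9% with CHQ. Of 20 other trophoblast factors and their cofactors, 18 could be called. With AZA 6 were higher and 2 lower, and with CHQ 5 were higher and 2 lower, while the median over the 20 was -0.34 and 0.07, against -0.07 and -0.09 over all genes tested. Sox21 was higher by 2.73 with AZA and 2.39 with CHQ, but its second probe gave -0.56 and -0.54. Ascl2, which maintains the placental spongiotrophoblast, was higher by 2.64 with AZA and 2.35 with CHQ. Klf5, shared by ES cells and trophectoderm, was higher by 2.38 and 2.66. Gcm1, the factor of the labyrinth, was higher by 2.25 and 2.55, and its other 3 probes gave 1.24 to 2.89 with CHQ. Its brightest probe was already bright without an inhibitor, at 16.29 on ES and 15.56 on ELA. The ES reading was above that of Pou5f1 (14.96), and whether this probe reads Gcm1 alone was not tested. With spike-in scaling the factors called with CHQ were 5 higher and 5 lower, while 2063 of all 18589 genes tested were higher and 4206 lower. The median over the 20 with CHQ was then -0.46, and it was -0.11 with the 75th percentile. Over all genes tested these scalings gave -0.39 and -0.26. From ES to ELA 0 of these factors were higher and 6 lower, against 4.46% and 5.6% of all genes tested. Against ES rather than ELA, 4 of 18 were higher and 2 lower with AZA, beside 11.3% and 8.29% of all genes tested. With CHQ 2 of 18 were higher and 2 lower, beside 12.7% and 10.3%. Klf5 lay at -0.08 and 0.20 from ES, whereas Ascl2 was above ES by 1.76 and 1.46. Under spike-in scaling, where most called genes were lower, 1 factor was higher and 9 lower with AZA, and 0 and 9 with CHQ.

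Genes for placental products were mostly dim, and 8 of the 19 on the array were not well above background on any array. Of the few that could be called, 1 of 5 was higher and 2 lower with AZA, and 2 of 6 were higher and 2 lower with CHQ. Set against ES, 1 of 5 was higher and 2 lower with AZA, and 1 of 5 was higher and 1 lower with CHQ. The shares over all genes tested were those given above for each comparison. Plet1, a surface protein of early trophoblast, was higher by 3.33 and 3.38, and by 1.96 and 2.03 at its second probe. Flt1, a receptor for vascular growth factors, was lower by a difference of -2.42 with AZA and -1.70 with CHQ. Prl3b1, a placental lactogen, differed by -1.50 and -1.30.

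Of 26 genes of trophectoderm epithelium, such as junction proteins and transporters, 24 could be called with AZA, of which 5 were higher and 7 lower. With CHQ 23 could be called, of which 4 were higher and 5 lower. Over all genes tested, 14.3% were higher and 11.4% lower with AZA, and 14.8% and 11.9% with CHQ. The median over the list was -0.32 with AZA and -0.49 with CHQ, against -0.07 and -0.09 over all genes tested. With spike-in scaling, which shifts all genes down, CHQ gave 1 higher and 6 lower. Of all 18589 genes tested, 2063 were then higher and 4206 lower. Set against ES, 4 of 24 were higher and 5 lower with AZA, and 1 of 24 was higher and 6 lower with CHQ, beside the ES shares given above. Lgals3, a galectin, was higher than in ELA by 2.87 and 2.47 and lay at -0.28 and -0.69 from ES. The endocytic receptor Lrp2 was lower with AZA (-2.92) and short of the size of 1 with CHQ (-0.93), the tight junction claudin Cldn7 with both (-2.25 and -2.43) and Cldn3 with both (-1.20 and -2.24).

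Members of the same gene families divided too. Among 18 relatives, 3 of 9 were higher and 2 lower with AZA, and 4 of 9 were higher and 2 lower with CHQ, beside the same shares over all genes. Set against ES, 1 of 9 was higher and 1 lower with AZA, and 2 of 10 were higher and 3 lower with CHQ, beside the ES shares given above. The differences that follow are from ELA. Tfap2e, a further AP-2 gene, was higher by 2.26 with CHQ, against 0.57 with AZA. Elf3 was higher by 2.20 with AZA and 1.77 with CHQ, and Elf1 by 1.69 with AZA and 2.98 with CHQ, while its second probe gave 0.19 and 0.79. Gata5 was lower with both (-2.22 and -1.97). Gata6, a factor of primitive endoderm, was well above background on the treated arrays alone, and CHQ was at least 8.84-fold above ELA.

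Of 48 other keratins on the array, 16 could be called with AZA, of which 2 were higher and 1 lower, and 18 could be called with CHQ, of which 5 were higher and 0 lower, beside the same shares over all genes. Set against ES, 2 of 19 were higher and 5 lower with AZA, and 3 of 19 were higher and 3 lower with CHQ, beside the ES shares given above. The differences that follow are from ELA. Krt19, found with Krt8 and Krt18 in simple epithelia, read 12.56 in ES cells and 10.88 in ELA but 12.63 with AZA and 13.19 with CHQ, and so was higher by 1.75 and 2.31. Krt5, of basal epidermis, was higher by 1.73 and 3.96, although its second probe gave -0.16 with CHQ, and Krt15 with CHQ was at least 8.29-fold above an ELA reading not well above background. Krt85, a hair keratin, was lower with AZA (-1.11), and its other 2 probes disagreed in sign (-0.47 and 0.97).

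Genes of the non-neural ectoderm, which shares Tfap2a and Tfap2c with the trophoblast, were counted as the other tissue in which these factors act. With AZA 5 of 13 were higher and 1 lower, and with CHQ 5 of 13 were higher and 0 lower, beside the same shares over all genes. Set against ES, 3 of 12 were higher and 2 lower with AZA, and 4 of 13 were higher and 1 lower with CHQ, beside the ES shares given above. The differences that follow are from ELA. The ligand gene Wnt6, not well above background on ELA, was at least 30.9-fold higher with AZA and at least 17.5-fold higher with CHQ. Grhl3, a factor of surface ectoderm, was higher by 3.92 and 3.97, and Perp by 2.01 and 3.53. Krt5, Krt14 and Krt19 are counted both here and among the keratins, so that Krt5 and Krt19 are 2 of the 5 higher genes with each inhibitor, and Dlx3 and Msx2 are also among the trophoblast factors.

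**Figure D4:**
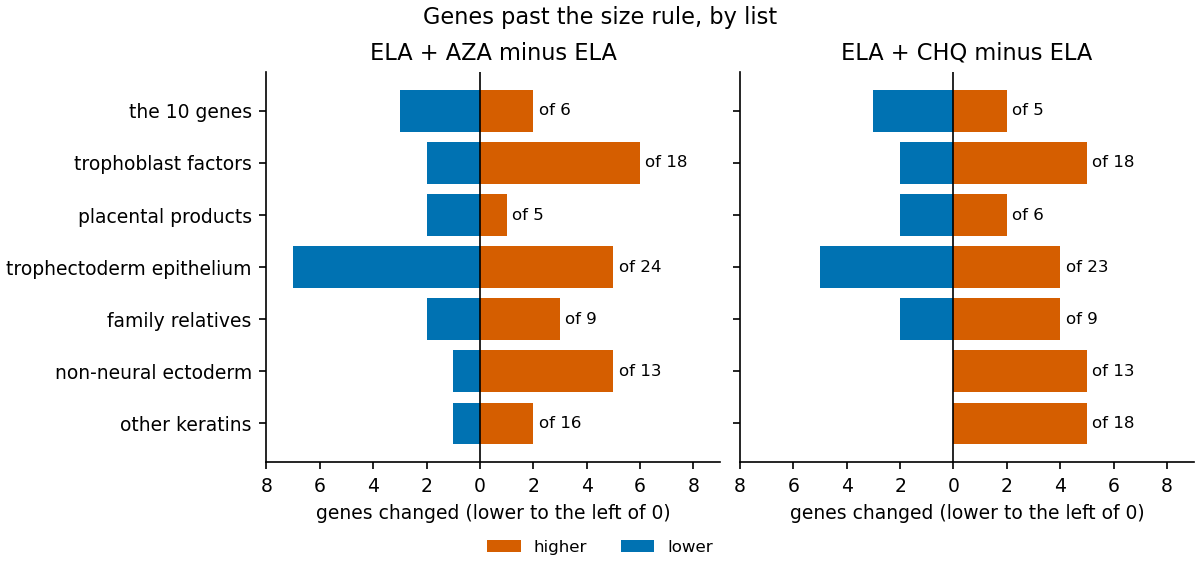
Number of genes called higher (right of 0) or lower (left of 0) against the ELA control with AZA (left panel) and with CHQ (right panel), for the 10 genes and 6 further lists, with the number that could be called beside each bar. The factors, the family relatives, the other keratins and the ectoderm genes had more higher than lower calls with both inhibitors, as had all genes tested. The counts are small, such as 2 higher and 1 lower of 16 other keratins with AZA. Some called genes had a second probe that disagreed, and no difference from all genes was tested. Spike-in scaling gave 5 factors each way with CHQ. The 10 genes were divided. Over all genes tested 14.3% were higher and 11.4% lower with AZA, and 14.8% and 11.9% with CHQ.

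Markers of further cell types were read on the same arrays, where 14.3% of all genes tested were higher and 11.4% lower with AZA and 14.8% and 11.9% with CHQ. Of 6 ES cell markers 4 were higher with AZA and 3 with CHQ, and Klf4 by 4.09 and 3.50. Pou5f1 went the other way without being called (-0.41 and -0.90), and Nanog was at 0.01 with CHQ. With the 75th percentile and with spike-in scaling, CHQ gave 3 ES cell markers higher and 1 lower. Of 5 ELA markers 3 were lower with AZA and 2 with CHQ. Of 12 primitive endoderm markers, 1 was higher and 2 lower with AZA and 3 were higher and 2 lower with CHQ, where 6 and 8 could be called. With the 75th percentile these counts became 0 and 0 with AZA and 2 and 1 with CHQ. Gata4 and Gata6 are also counted among the family relatives, and Dab2 among the genes of trophectoderm epithelium. Neither Hnf4a nor Sox17 was well above background on ELA. Hnf4a was at least 16.8-fold higher with AZA and at least 5.15-fold with CHQ, and Sox17 at least 6.68-fold with CHQ, where its second probe gave a log2 difference of 1.37. Foxa2 (-1.81 with AZA and -1.01 with CHQ) and Dab2 (-1.47 and -1.34) were lower. The summed normalized level of the 12 endoderm markers, of which the laminin gene Lama1 gave the most signal on each array, was 8983 on ES, 7512 on ELA, 9391 on AZA and 8774 on CHQ. Levels of different probes are not on a common scale, so this sum neither compares the markers nor measures an amount of endoderm. Of 6 neural markers, 5 of which could be called, 3 were lower with each inhibitor, with Tubb3 at -2.65 and -3.29, although the second probe of Zic1, 1 of the 3 with each, gave -0.01 and 1.75. Of 8 fibroblast markers, 5 of which could be called, 2 were higher and 2 lower with AZA and 3 were lower with CHQ, and of 8 mesoderm markers only 2 could be called, of which 0 were called with AZA and 1 was lower with CHQ, Kdr (-1.05), whose second probe gave 0.82. The part of these cell types in the levels of the 10 genes was not tested.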

How the data were processed

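Per the labels and the file headers, Cy3-labelled cRNA was hybridized to Agilent 8x60K arrays and read with Agilent Feature Extraction (10.7.3.1 in the headers; the submitters' processing notes give 9.1 and limma). The deposited intensity values are unnormalized spot means, medians and local backgrounds. The value table deposited by the authors holds log2 values. Its scale and centring were checked against the scanner values: each array's values had a Pearson correlation of 0.9999 with median intensities, normexp-corrected and quantile-normalized, and its medians were 6.23, 6.21, 6.24 and 6.23 on ES, ELA, AZA and CHQ. Higher values mean more RNA.

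Here mean intensities were corrected by normexp (offset 50) on the local background median, quantile-normalized on the linear scale and taken to log2, with limma 3.58.1 in R 4.3.3. Control and outlier-flagged spots were then left out, 0 gene spots were saturated, and 55122 of 55681 probes remained. Probes were named through RefSeq accessions (GRCm38.p6, names only; 47.7% matched), otherwise as on the array. A gene was read at its brightest probe over the 4 arrays. With 1 array per group no test was possible, the number of arrays limits the precision, and the call rule takes its thresholds of size from the study. The call rule was checked on simulated data with known differences. These were larger than the call size, in genes well over the minimum level and with noise like that between spots. The check therefore does not cover dim genes or variation between cultures or slides. Genes from the lists were named by the largest difference from ELA, at most 3 per inhibitor. The members and lists were chosen with earlier results of these data known.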

Additional observations from a re-analysis of the deposited data

How the results depend on the processing

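The alternatives were scaling on the 75th percentile or on spike-in probes, normexp without its offset, no background correction, the deposited value table, no filter on dim probes, a probe well above background on both arrays, and the mean over probes. The median spot intensity and quantiles taken on log2 values were added after seeing the data. Both orders of quantiles and log2 were run with the calls known, and the order used is that of limma's own function. It decides Gata3 between ES and AZA, which was called lower with quantiles on log2 values. The number of genes called between ELA and ES was 2, and became 6 with spike-in scaling and 4 without the filter on dim probes. Between CHQ and AZA it was 1, and became 2 with scaling on the 75th percentile and with normexp without its offset. The other counts of the 10 genes stayed within 1.5 times, and no called difference reversed. The cause was not tested.

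Spike-in scaling moved the median of all genes to -0.59 between ELA and ES, -0.84 between AZA and ES, -0.997 between CHQ and ES and -0.18 between CHQ and AZA, and the 75th percentile moved the AZA and CHQ medians against ES to -0.24 and -0.32. Genes changed in all numbered 4214 in place of 1909, 9069 in place of 3753 and 10704 in place of 4426 in the first 3 of these comparisons. With spike-in scaling the share of higher genes among those called went from 44.3% to 7.52% (ELA against ES), 55.7% to 45.4% (AZA against ELA), 55.5% to 32.9% (CHQ against ELA), 53.5% to 41.7% (CHQ against AZA), 57.6% to 10.1% (AZA against ES) and 55.2% to 8.92% (CHQ against ES). With the 75th percentile it was 48.7% for AZA against ELA, 42.0% for CHQ against ELA, 45.7% for AZA against ES and 37.5% for CHQ against ES. No paired analysis was possible because each group has 1 array, and no replicate could be left out. Signal over background limits Cdx2, Gata3, Elf5 and Hand1, for which only bounds are given on some arrays.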
